A study of Mus musculus with 12 samples.

Results

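Egr1, Egr2, Egr3, Nr4a1, Nr4a2, Nr4a3, Klf2, Klf4, Klf6 and Ier3 are 10 genes of early transcriptional responses, chosen by name and found by their Ensembl IDs among the 56941 gene IDs of the count table. RNA was sequenced from RAW264.7 cells, a transformed murine macrophage line, after 24 h. Compressed macrophages (n = 6) lay on a porous culture insert under an agarose cushion with a printed weight that applied 0.14 kPa of static compressive stress. Control macrophages (n = 6) lay on the same kind of insert under the agarose cushion alone, so the cushion was common to both groups. Every library comes from 1 cell line and 1 time point, and separate cultures are not stated for samples of the same group; p-values therefore cover only the spread between these samples, possibly a technical one.

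The products of these genes fall into several protein families. EGR factors are zinc finger proteins that bind GC-rich DNA, and their genes are textbook immediate-early genes, transcribed within minutes of a signal through ERK kinases and the serum response factor without new protein synthesis. The NR4A genes encode orphan nuclear receptors (NUR77, NURR1 and NOR1) that are controlled mainly by their abundance, are induced through cyclic AMP and calcium signals, and in macrophages are known to restrain inflammatory gene expression. KLF2 and KLF4 are zinc finger factors known as flow-responsive genes of endothelium and as regulators of monocyte and macrophage activation, and KLF6 is a widely expressed relative that takes part in inflammatory gene expression in macrophages. IER3 is a short-lived protein that modulates cell survival and ERK signalling and whose gene is a known target of NF-kB.

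After 24 h of compression 9 of the 10 genes were higher in compressed macrophages than in controls and 1, Nr4a2, was lower. The largest differences were in Nr4a3 (4.43-fold), Ier3 (2.76-fold), Egr2 (2.69-fold), Klf6 (2.00-fold) and Nr4a1 (1.71-fold), while Egr1 and Egr3, the other EGR genes, differed by 1.30-fold and 1.22-fold. All 10 genes passed the filter on low counts, and all 10 were called by edgeR's quasi-likelihood test at an adjusted p of 0.05 or less. Calls were common in these libraries: 46.4% of the 15001 tested genes were called, with 24.5% of all tested genes called higher and 21.9% called lower in compressed macrophages. The median log2 fold change was 0.72 over the 10 genes and 0.02 over all tested genes. DESeq2 also called all 10, with 35.2% of 21008 genes called. In these bulk libraries fewer cells of a type and less RNA per cell cannot be told apart.

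Library totals were 33460807 to 39103987 counts in compressed macrophages and 37948795 to 40463545 counts in controls. Compressed replicate 6 stood apart: its log2 CPM, counts per 1000000 reads of the library, correlated at 0.968 to 0.975 with the other compressed libraries, against 0.994 to 0.996 among compressed replicates 1 to 5 and 0.996 to 0.997 among controls. All 10 macrophage markers examined, among them Csf1r, Adgre1 and Cd68, passed the filter, with a summed level of 8389 to 10600 CPM in compressed and 6857 to 7357 CPM in control libraries, 4 markers higher and 2 lower. Markers of other cell types were near 0: the 5 listed markers of each type summed to at most 0.883 CPM for fibroblasts, 0.0972 for epithelium, 1.27 for endothelium, 0.103 for T and B cells and 0.478 for neutrophils, and Col3a1, Krt14, Cd3e, Ly6g and S100a9 had no count in any library. In the fibroblast and endothelial lists 1 gene each passed the filter, and both were called higher. The sum for neutrophils was 0.161 to 0.478 CPM in compressed and 0.0515 to 0.201 CPM in control libraries. The part of these differences in the results was not tested.

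Promoter sequence is shown for 5 genes: the 3 NR4A genes, because 1 of them moved against the others, and Egr2 and Ier3, the largest changes outside the NR4A genes. The window of Klf6, the largest change among the KLF genes, is not shown and held no match of the kinds marked below. RefSeq windows on GRCm38.p6, 250 bases before to 50 after an annotated start, were searched for 8 of the 10 genes, with 5 windows for Egr2 and 1 for each of the others. Egr1 and Egr3 had no window in the search. The windows below are at chr10:67537619-67537918 (plus strand) for Egr2 start 3, chr15:101266596-101266895 (plus) for Nr4a1, chr2:57123954-57124253 (minus) for Nr4a2, chr4:48045055-48045354 (plus) for Nr4a3 and chr17:35821463-35821762 (plus) for Ier3. Each reads 5′ to 3′ in the direction of transcription. Capitals mark matches, on either strand, to the half-site of the cAMP response element (TGACG, or CGTCA on the other strand), the CArG box bound by serum response factor, the NF-kB site and the TATA box.
Egr2 start 3: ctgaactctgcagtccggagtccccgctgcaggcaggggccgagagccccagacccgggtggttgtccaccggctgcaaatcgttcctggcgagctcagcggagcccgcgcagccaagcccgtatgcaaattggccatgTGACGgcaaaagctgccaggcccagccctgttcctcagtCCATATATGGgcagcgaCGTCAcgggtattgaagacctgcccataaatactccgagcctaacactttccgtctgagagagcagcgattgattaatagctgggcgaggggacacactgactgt
Nr4a1: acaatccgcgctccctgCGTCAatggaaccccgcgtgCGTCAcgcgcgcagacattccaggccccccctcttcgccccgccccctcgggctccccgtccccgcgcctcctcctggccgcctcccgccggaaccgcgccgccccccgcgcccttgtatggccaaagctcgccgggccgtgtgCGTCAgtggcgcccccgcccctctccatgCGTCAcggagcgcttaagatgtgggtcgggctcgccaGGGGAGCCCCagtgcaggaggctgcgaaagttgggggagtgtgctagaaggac
Nr4a2: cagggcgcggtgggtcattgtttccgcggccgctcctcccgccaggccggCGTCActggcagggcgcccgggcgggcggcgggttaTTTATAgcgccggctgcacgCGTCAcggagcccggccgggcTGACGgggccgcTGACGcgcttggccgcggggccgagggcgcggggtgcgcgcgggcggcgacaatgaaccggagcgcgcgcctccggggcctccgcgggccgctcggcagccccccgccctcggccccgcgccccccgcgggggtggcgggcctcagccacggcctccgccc
Nr4a3: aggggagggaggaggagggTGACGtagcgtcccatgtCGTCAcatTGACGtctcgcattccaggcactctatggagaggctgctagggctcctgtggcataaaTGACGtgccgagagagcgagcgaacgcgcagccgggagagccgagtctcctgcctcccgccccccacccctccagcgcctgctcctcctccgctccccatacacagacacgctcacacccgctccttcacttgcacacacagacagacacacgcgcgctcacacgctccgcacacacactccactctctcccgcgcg
Ier3: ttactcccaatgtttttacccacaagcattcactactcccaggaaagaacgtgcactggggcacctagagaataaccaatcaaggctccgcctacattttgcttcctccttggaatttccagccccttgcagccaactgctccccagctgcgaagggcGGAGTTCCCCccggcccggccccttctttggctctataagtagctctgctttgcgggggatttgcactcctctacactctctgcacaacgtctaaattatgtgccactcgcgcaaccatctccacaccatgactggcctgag

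Each of the 3 NR4A windows held 4 half-sites of the cAMP response element, the DNA element bound by CREB proteins. Of the 32851 promoter windows searched, 5.01% held 2 or more half-sites, 1.03% held 3 or more and 0.231% (76 windows) held 4 or more, where 4 is the count seen in the NR4A windows and was not set beforehand. At least 1 half-site was in 20.8% of all windows and in windows of 6 of the 8 genes, with Klf2, Klf4 and Egr2 starts 3, 4 and 5 besides the NR4A genes. The full palindrome TGACGTCA, which contains the half-site on both strands, was in 1.79% of all windows and in 0 of the 8 genes. Nr4a2, the gene that was lower, and Nr4a1 and Nr4a3, which were higher, thus had the same number of half-sites. The Nr4a2 window alone held a TATAAA match, which 13.6% of all windows hold. That match began at -164 from the annotated start and was on the opposite strand (TTTATA).

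Matches to other elements were scattered over the families. A CArG box was in 1.63% of all windows and, among the 8 genes, only in Egr2: CCATATATGG in the windows of starts 3, 4 and 5, which overlap each other, and CCTTTTTTGG in that of start 2. Egr1 and Egr3, the other EGR genes, were not searched, so Egr2 cannot be compared with them here. The NF-kB site was in 8.46% of all windows and in Egr2 start 1, Nr4a1 and Ier3. A MEF2 site, named here by its factor alone, was in 3.19% of all windows and in Nr4a2, where it overlapped the TATAAA match, and Klf2. An EGR site (GCGGGGGCG or GCGTGGGCG) was in 3.47% of all windows and in Nr4a1, Klf2 and Klf4, where it overlapped a GC box (GGGCGG), itself in 35.7% of all windows and in all 8 genes. The AP-1 site (TGACTCA or TGAGTCA, in 5.20% of all windows) and the NR4A site AAAGGTCA (1.51%) were in 0 of the 8. Shares are per window, and a gene with several starts had several chances of a match. A match is a stretch of letters, not evidence that a factor bound there.

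**Figure D1:**
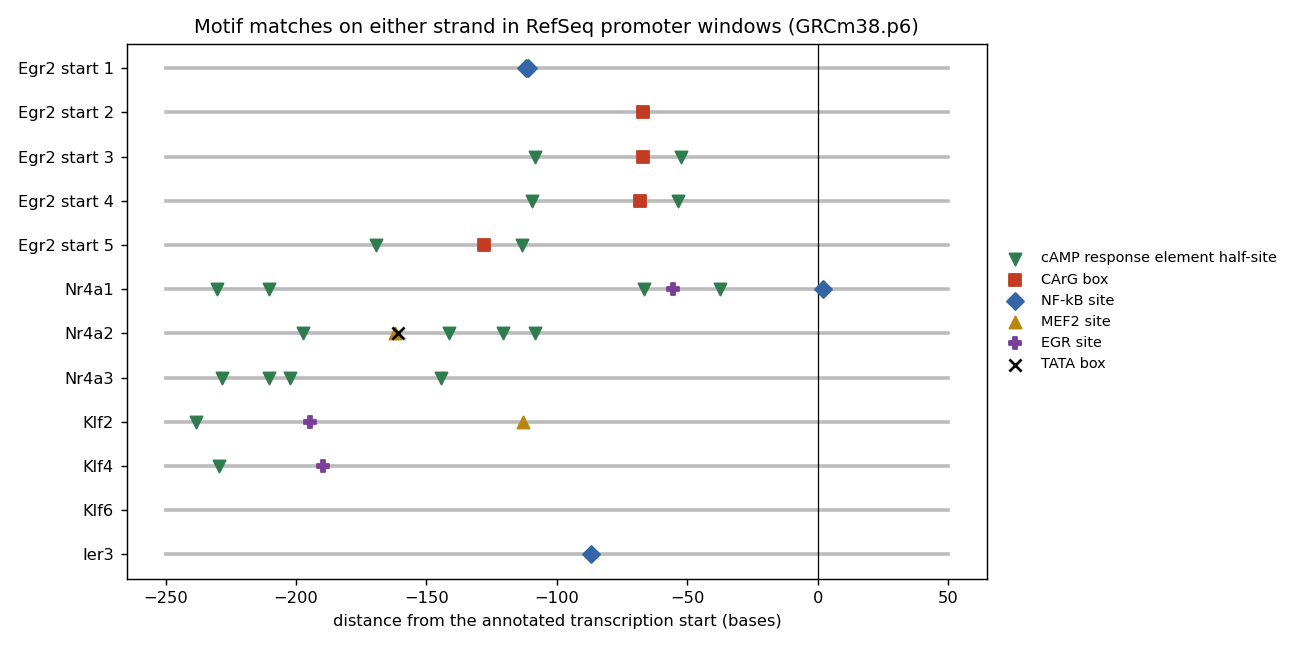
Matches to 6 motifs in the 12 RefSeq promoter windows of 8 genes, by distance in bases from the annotated start (vertical line). Each grey bar is 1 window and each symbol the middle of a match on either strand; the 3 NR4A windows hold 4 half-sites of the cAMP response element each, and the CArG box is seen in 4 of the 5 Egr2 windows.

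Among the EGR factors Egr2 (ENSMUSG00000037868), a regulator of macrophage activation and of myelination, carried the largest difference. Egr2 had a lowest, median and highest level of 32.8, 33.5 and 38.0 CPM in compressed macrophages, against 11.3, 12.8 and 14.0 CPM in controls. The lowest compressed library was far above the highest control compared with the spread inside either group. The log2 fold change was 1.43 ± 0.059 (SE; adjusted p = 7.27e-10, edgeR), and 2.51% of tested genes had a larger one. Egr3 (ENSMUSG00000033730), a paralog induced by the same kinds of signal, was at 28.2, 28.7 and 33.3 CPM in compressed macrophages, against 22, 24.0 and 26.9 CPM in controls. The Egr3 groups did not overlap either, but the highest control lay just under the lowest compressed library. Its log2 fold change was 0.29 ± 0.057 (adjusted p = 7.76e-04).

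Egr1 (ENSMUSG00000038418), the founding member of the family and a standard readout of ERK activity, was at 94.2, 115 and 125 CPM in compressed macrophages, against 72.1, 85.5 and 106 CPM in controls. The groups overlapped. Replicates 1 and 3 of the controls, at 106 and 104 CPM, and control replicate 2, at 97.4 CPM, lay above compressed replicate 6, and the other 5 compressed libraries, at 112 CPM or more, lay above every control. The log2 fold change was 0.38 ± 0.114 (adjusted p = 0.0146), the largest SE of the 3 EGR genes.

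The NR4A receptors moved in opposite directions. Nr4a3 (ENSMUSG00000028341), which encodes NOR1, was the least abundant of the 10 genes and had the largest fold change. It had 69, 68, 96, 75, 83 and 69 counts in compressed replicates 1 to 6, against 18, 17, 18, 13, 19 and 32 counts in control replicates 1 to 6, at similar library totals. The lowest compressed library had far more counts than the highest control, replicate 6. In CPM this is 2.19 ± 0.330 in compressed and 0.492 ± 0.172 in control macrophages (SD, n = 6 each), and the log2 fold change was 2.15 ± 0.188 (adjusted p = 6.01e-07), exceeded by 0.927% of tested genes. Nr4a1 (ENSMUSG00000023034), which encodes NUR77, was at 20.2, 21.2 and 25.8 CPM in compressed macrophages, against 10.9, 12.8 and 13.8 CPM in controls. The Nr4a1 groups did not overlap, and compressed replicate 5 was the high library. Its log2 fold change was 0.78 ± 0.075 (adjusted p = 1.54e-06).

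Nr4a2 (ENSMUSG00000026826), which encodes NURR1, was the 1 gene that fell. Its levels were 6.87, 8.07 and 8.74 CPM in compressed macrophages, against 8.24, 9.30 and 10.2 CPM in controls. The groups overlapped: compressed replicate 4 was above control replicate 2, while compressed replicate 6 was the lowest of all 12 libraries. The log2 fold change was -0.22 ± 0.070 (adjusted p = 0.0213). Without control replicate 3, the highest library, the log2 fold change was -0.19 and the adjusted p 0.0539, so the call was lost. It was kept in 11 of the 12 fits that each left out a library, with adjusted p from 0.0128 to 0.0539 over the 12. The call was thus near the threshold.

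All 3 KLF genes rose. Klf6 (ENSMUSG00000000078) was the most abundant of them, at 218, 227 and 259 CPM in compressed macrophages, against 112, 116 and 122 CPM in controls. Each compressed library was far above the highest control, and the controls lay close together. The log2 fold change was 1.00 ± 0.049 (adjusted p = 3.21e-09), with the smallest SE of the 10 genes. Klf2 (ENSMUSG00000055148) was at 14.2, 16.9 and 27.1 CPM in compressed macrophages, against 8.86, 11.5 and 13.0 CPM in controls. The groups did not overlap, and compressed replicate 6, at 27.1 CPM, was well above the next library, compressed replicate 1 at 17.5 CPM. The Klf2 log2 fold change was 0.66 ± 0.144 (adjusted p = 0.00187), and without compressed replicate 6 it was 0.51 (adjusted p = 7.98e-06). Klf4 (ENSMUSG00000003032), better known for reprogramming and for alternative activation of macrophages, was at 12.0, 13.6 and 15.2 CPM in compressed macrophages, against 9.17, 9.93 and 10.6 CPM in controls. Its groups did not overlap, and the log2 fold change was 0.45 ± 0.067 (adjusted p = 8.39e-05).

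Ier3 (ENSMUSG00000003541) was the most abundant of the 10 genes and the second largest change. It was at 825, 935 and 1523 CPM in compressed macrophages, against 347, 363 and 387 CPM in controls. The groups were far apart, and compressed replicate 6, at 1523 CPM, stood far above compressed replicate 1 at 953 CPM. The log2 fold change was 1.47 ± 0.128 (adjusted p = 5.75e-07). Without compressed replicate 6 the compressed mean was 904 ± 55.4 CPM (SD, n = 5), against 364.5 ± 13.6 CPM in controls (SD, n = 6), and the log2 fold change was 1.31 (adjusted p = 5.57e-16).

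**Figure D2:**
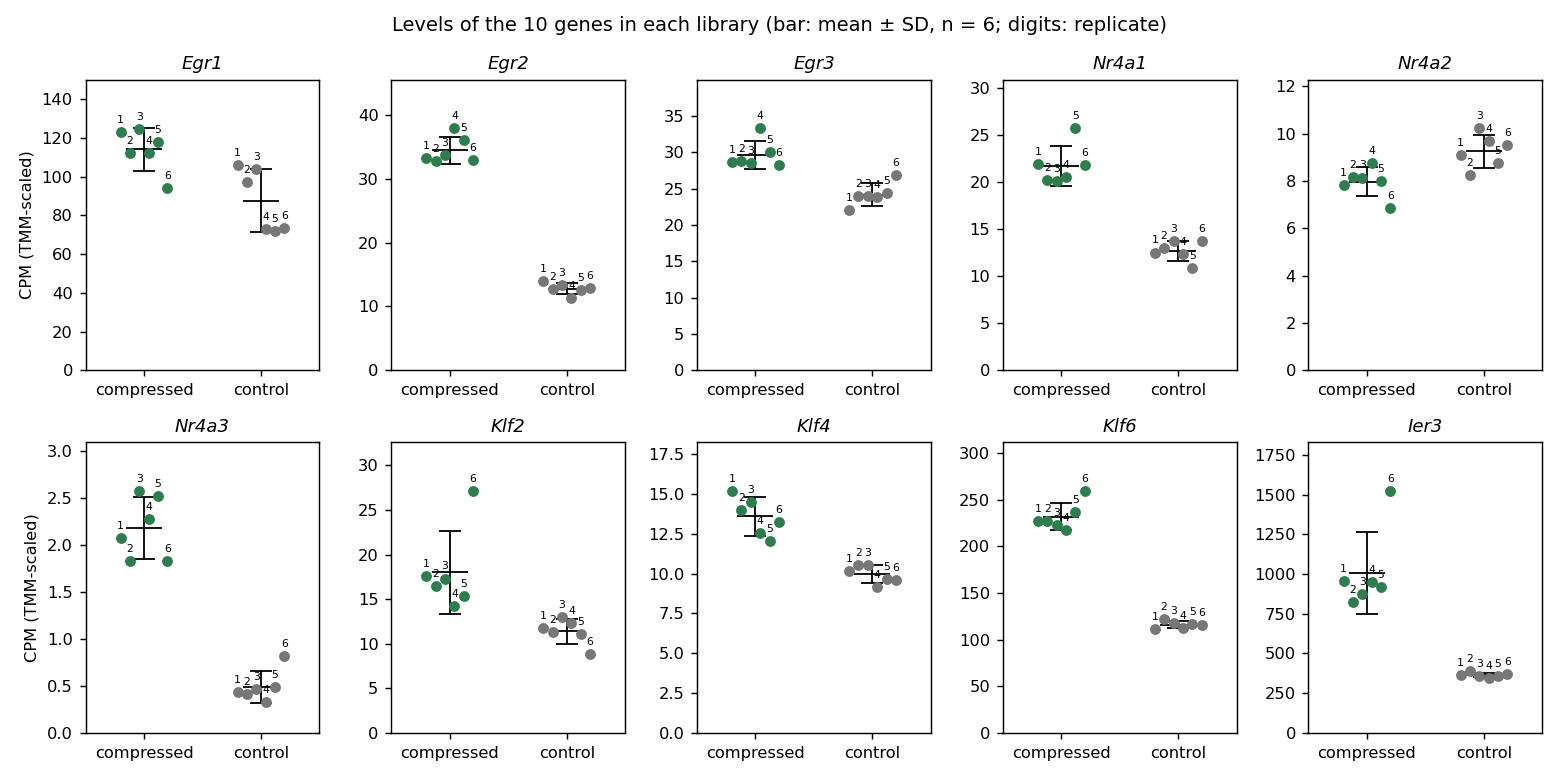
Level of each of the 10 genes in TMM-scaled CPM (vertical axes, all from 0) in the 6 compressed (green) and 6 control (grey) libraries, with the replicate number above each point and bars for the mean ± SD. Groups are apart in 8 panels and overlap for Egr1 and Nr4a2; compressed replicate 6 is the high point for Klf2 (27.1 CPM) and Ier3 (1523 CPM).

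The groups did not overlap for 8 of the 10 genes, all of them higher in compressed macrophages, against 16.5% of all tested genes that did not overlap and were higher. When the test asked for a change of more than 1.5-fold in place of any change (edgeR's glmTreat), Nr4a3, Ier3, Egr2, Klf6 and Nr4a1 were called higher, Nr4a1 at an adjusted p of 0.0342, against 5.99% of tested genes called higher by the same rule. Without compressed replicate 6 all 10 calls stood, in a fit that called 9981 of all tested genes, against 6960 with all 12 libraries. The log2 fold changes were then 0.43 for Egr1, 1.44 for Egr2, 0.30 for Egr3, 0.77 for Nr4a1, -0.18 for Nr4a2, 2.19 for Nr4a3, 0.51 for Klf2, 0.46 for Klf4, 0.96 for Klf6 and 1.31 for Ier3. Over all genes the split of calls moved with the scaling, with 3677 genes called higher and 3283 lower with TMM and 3079 higher and 4050 lower with library size alone, while the 10 genes kept their directions and calls under both.

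Levels of different genes are compared here as mean CPM per kb of exon sequence, since a longer transcript gives more reads. In compressed macrophages the order was Ier3 at 890.5 ± 228 CPM per kb (SD, n = 6), Klf6 at 52.8 ± 3.39, Egr1 at 25.4 ± 2.46, Egr2 at 10.2 ± 0.616, Klf2 at 9.76 ± 2.51, Egr3 at 6.72 ± 0.436, Nr4a1 at 6.20 ± 0.603, Klf4 at 4.46 ± 0.395, Nr4a2 at 1.96 ± 0.151 and Nr4a3 at 0.366 ± 0.0551. In that order the SD ranges of Egr2 and Klf2, and of Egr3 and Nr4a1, overlapped. In controls the order was Ier3 at 322.2 ± 12.0 CPM per kb, Klf6 at 26.4 ± 0.842, Egr1 at 19.6 ± 3.67, Klf2 at 6.17 ± 0.777, Egr3 at 5.49 ± 0.356, Egr2 at 3.77 ± 0.261, Nr4a1 at 3.62 ± 0.307, Klf4 at 3.27 ± 0.186, Nr4a2 at 2.28 ± 0.174 and Nr4a3 at 0.0822 ± 0.0287. Here the SD ranges of Klf2 and Egr3, of Egr2 and Nr4a1 and of Nr4a1 and Klf4 overlapped. Egr2 was therefore above Egr3 per kb in compressed macrophages and below it in controls. With the length of the longest transcript, Nr4a1 (8.52 CPM per kb) stood above Egr3 (7.52) in compressed macrophages, and Nr4a1 (4.98) above Egr2 (4.32) in controls.

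The unequal changes inside each family were compared as log2 ratios of CPM between family members within a library, which do not depend on the scaling of libraries. Each ratio was tested over 6 against 6 libraries with a two-sided exact permutation test, whose smallest possible p is 0.00216, and adjusted over the 9 pairs. This comparison was added after the values were seen. Egr1 over Egr2 averaged 1.72 ± 0.158 in compressed and 2.76 ± 0.211 in control macrophages (SD, n = 6 each; difference -1.03, exact p = 0.00216, adjusted p = 0.00325). Egr2 over Egr3 averaged 0.22 ± 0.029 in compressed and -0.92 ± 0.155 in control macrophages, a difference of 1.14 at the same p, so that Egr2 had more reads than Egr3 in every compressed library and fewer in every control. Egr1 over Egr3 averaged 1.94 ± 0.165 in compressed and 1.84 ± 0.338 in control macrophages, and its difference of 0.10 did not pass the test (exact p = 0.519, adjusted p = 0.519), with libraries from 1.74 to 2.13 in compressed and 1.45 to 2.27 in control macrophages.

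Among the NR4A receptors all 3 ratios differed without overlap between groups. Nr4a1 over Nr4a2 averaged 1.45 ± 0.196 in compressed and 0.46 ± 0.125 in control macrophages (difference 0.99). Nr4a1 over Nr4a3 averaged 3.32 ± 0.219 in compressed and 4.75 ± 0.419 in control macrophages (difference -1.43), and Nr4a2 over Nr4a3 averaged 1.87 ± 0.188 in compressed and 4.29 ± 0.446 in control macrophages (difference -2.42), each at an exact p of 0.00216 and an adjusted p of 0.00325. Nr4a3 thus gained on both relatives while it stayed the least abundant. Among the KLF genes Klf4 over Klf6 averaged -4.09 ± 0.171 in compressed and -3.54 ± 0.068 in control macrophages, at the same p. Klf2 over Klf6 averaged -3.72 ± 0.252 in compressed and -3.36 ± 0.202 in control macrophages (exact p = 0.0281, adjusted p = 0.0362), and these groups overlapped. Klf2 over Klf4 averaged 0.38 ± 0.326 in compressed and 0.19 ± 0.185 in control macrophages (exact p = 0.271, adjusted p = 0.304). Its difference was 0.19 with all libraries and 0.06 without compressed replicate 6.

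**Figure D3:**
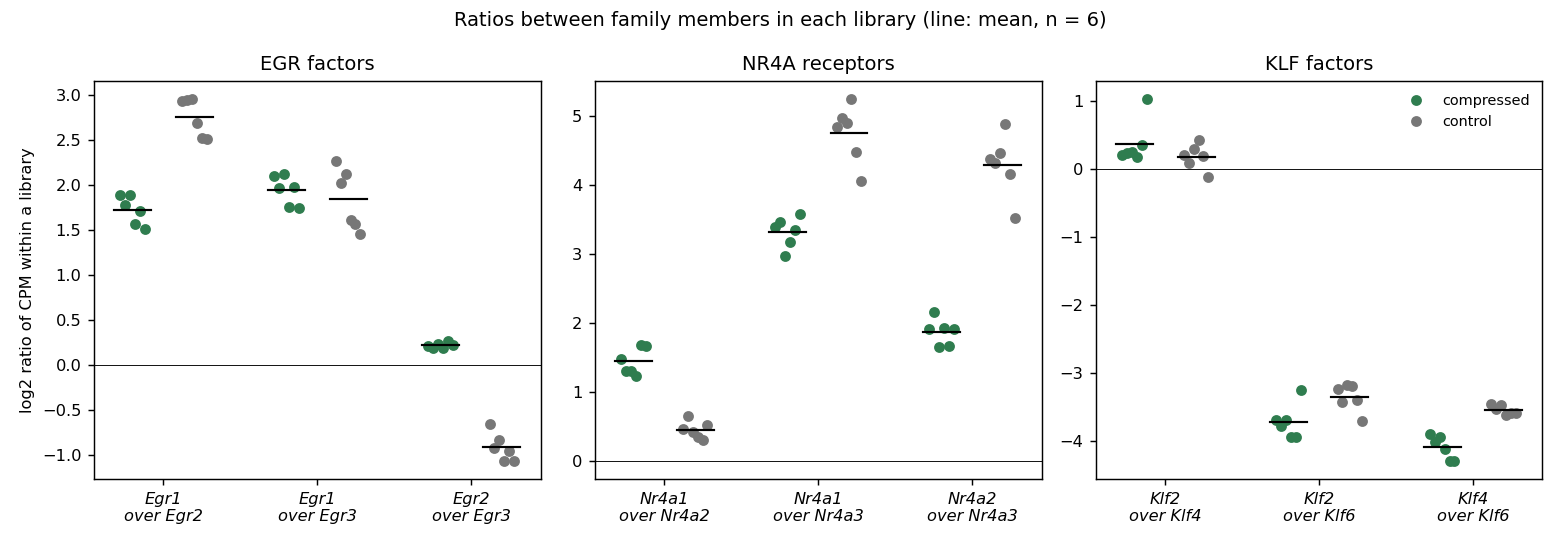
Log2 ratio of CPM of 2 members of a family within each library (vertical axis), for the 6 compressed (green) and 6 control (grey) libraries, with a line at each mean. Egr2 over Egr3 lies above 0 in all compressed libraries (0.19 to 0.27) and below 0 in all controls (-1.07 to -0.66), and all 3 NR4A ratios are apart.

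Genes that act with these families or upstream of them were counted by list, beside the background shares given above. Without compressed replicate 6 calls were more common, with 9981 tested genes called against 6960, and 59 genes of the related lists against 40. Of the EGR relatives and the NAB corepressors, which bind EGR proteins, Egr4 had no count, Nab2 was not called and Nab1 fell to 96.8 ± 9.06 CPM in compressed macrophages, against 121 ± 2.50 CPM in controls (SD, n = 6 each; log2 fold change -0.33 ± 0.061, adjusted p = 5.92e-04). No gene of this list was called higher by edgeR or DESeq2, and 0 were higher at an unadjusted p under 0.05. Among the 12 measured of 18 other KLF and SP factors 4 rose and 2 fell, with a median log2 fold change of 0.11. Klf7 was at 73.7 ± 5.40 CPM in compressed and 43.5 ± 2.16 CPM in control macrophages (log2 fold change 0.76, adjusted p = 1.19e-07), Klf11 rose by 0.38 and Klf9 by 0.34, and Klf16 (-0.27) and Sp3 (-0.14) went the other way. Without compressed replicate 6, 7 rose and 3 fell, the additions being Klf3, Klf8, Sp1 and Sp2, and the call of Sp3 was lost without compressed replicate 4, control replicate 4 or control replicate 6 (adjusted p up to 0.0643), which left 1 gene lower without either control and 2, with Sp2, without compressed replicate 4. Of the RXR receptors, with which NUR77 and NURR1 form heterodimers, Rxra fell to 14.0 ± 3.21 CPM in compressed macrophages, against 20.4 ± 1.15 CPM in controls (log2 fold change -0.54, adjusted p = 0.00649), Rxrb was not called and Rxrg had no count. No RXR gene was called higher by either tool, and again 0 were higher at an unadjusted p under 0.05. With 2 genes measured in this list and 2 in the EGR and NAB list, such absences say little.

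Regulators known to control EGR and NR4A transcription were called in both directions, where 24.5% of all tested genes were called higher and 21.9% lower. Of 6 measured genes for serum response factor and its cofactors 1 rose and 2 fell: Srf was at 52.2 ± 3.39 CPM in compressed and 67.4 ± 2.41 CPM in control macrophages (SD, n = 6 each; log2 fold change -0.37, adjusted p = 3.74e-05), Elk1 fell by 0.28 on the log2 scale and Elk3 rose by 0.11. The Elk3 call was kept in 5 of the 12 fits that each left out a library (adjusted p up to 0.0768), and without compressed replicate 6 Mrtfa and Mrtfb were called higher too. Of the 10 CREB, CRTC and MEF2 genes 2 rose and 1 fell, with a median of 0.02. Crem, whose products include the repressor ICER, was at 18.8 ± 2.48 CPM in compressed and 10.9 ± 0.838 CPM in control macrophages (log2 fold change 0.78, adjusted p = 4.92e-06). The calls of Atf1 (-0.17) and Crtc2 (0.14) were kept in 4 and 1 of the 12 such fits (adjusted p up to 0.0957 and 0.0951), with Crem the 1 gene higher without any of the other 11 libraries; without compressed replicate 6, 5 genes rose and 2 fell.

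Of the 14 genes measured from RAS to the RSK kinases 3 rose and 3 fell, with a median of -0.06, and Rps6ka4 was not analysed here. Among all tested genes 24.5% were called higher and 21.9% lower. Rps6ka2, an ERK-activated kinase, was at 24.9 ± 7.24 CPM in compressed and 13.8 ± 0.969 CPM in control macrophages (SD, n = 6 each; log2 fold change 0.84, adjusted p = 0.00252), Mapk3 (ERK1) rose by 0.43 and Map2k1 (MEK1) by 0.30. Rps6ka5, a kinase activated by ERK and p38, was among those that fell (-0.32). Without compressed replicate 6, 5 rose and 6 fell. In the MEKK, MEK5 and ERK5 route, known for inducing Klf2 and Klf4 in endothelium, Mapk7 (ERK5) rose by 0.19 (adjusted p = 0.0096) and 3 genes were not called. No gene of that route was called lower by edgeR or DESeq2, with 0 lower at an unadjusted p under 0.05, and without compressed replicate 6 Map3k2 was called higher too. With 4 genes measured in that route, the absence of lower calls says little. With library size alone the call of Mapk7 was lost.

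Most of the other immediate-early genes, a list chosen with earlier results of these data known, rose. Of 26 measured, 19 rose, 18 of them with no overlap between the groups, and the median log2 fold change was 0.62. Among all tested genes 24.5% were called higher, and 16.5% were higher with no overlap. The largest were Plk2, Maff and Atf3. Plk2, a stress-induced kinase, was at 234 ± 21.1 CPM in compressed and 87.7 ± 4.62 CPM in control macrophages (log2 fold change 1.42, adjusted p = 1.79e-09). Maff, a small MAF factor, was at 18.4 ± 1.86 CPM in compressed and 7.12 ± 0.292 CPM in control macrophages (1.37, adjusted p = 3.39e-09). Atf3, a stress-induced factor, was at 158 ± 11.3 CPM in compressed and 61.7 ± 4.40 CPM in control macrophages (1.36, adjusted p = 1.87e-09; SD, n = 6 each). No gene of this list was called lower by edgeR, 1 was lower at an unadjusted p under 0.05 and DESeq2 called 1 lower (Sik1, adjusted p = 0.0484). Lower calls changed with the setting. With library size alone Sik1 and Arc were called lower, and with the replicate number as a block Fos was. Leaving out libraries also changed them: Ier2 and Sik1 were called lower without compressed replicate 6, Sik1 also without compressed replicate 3, compressed replicate 4 or control replicate 4, and Fos without control replicate 6 (adjusted p = 0.046). Compressed replicate 6 was the highest of its group for 14 of the 26 genes and for 3 of the 10 response factors, and the lowest of its group for 7 of the 26 and 3 of the 10.

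**Figure D4:**
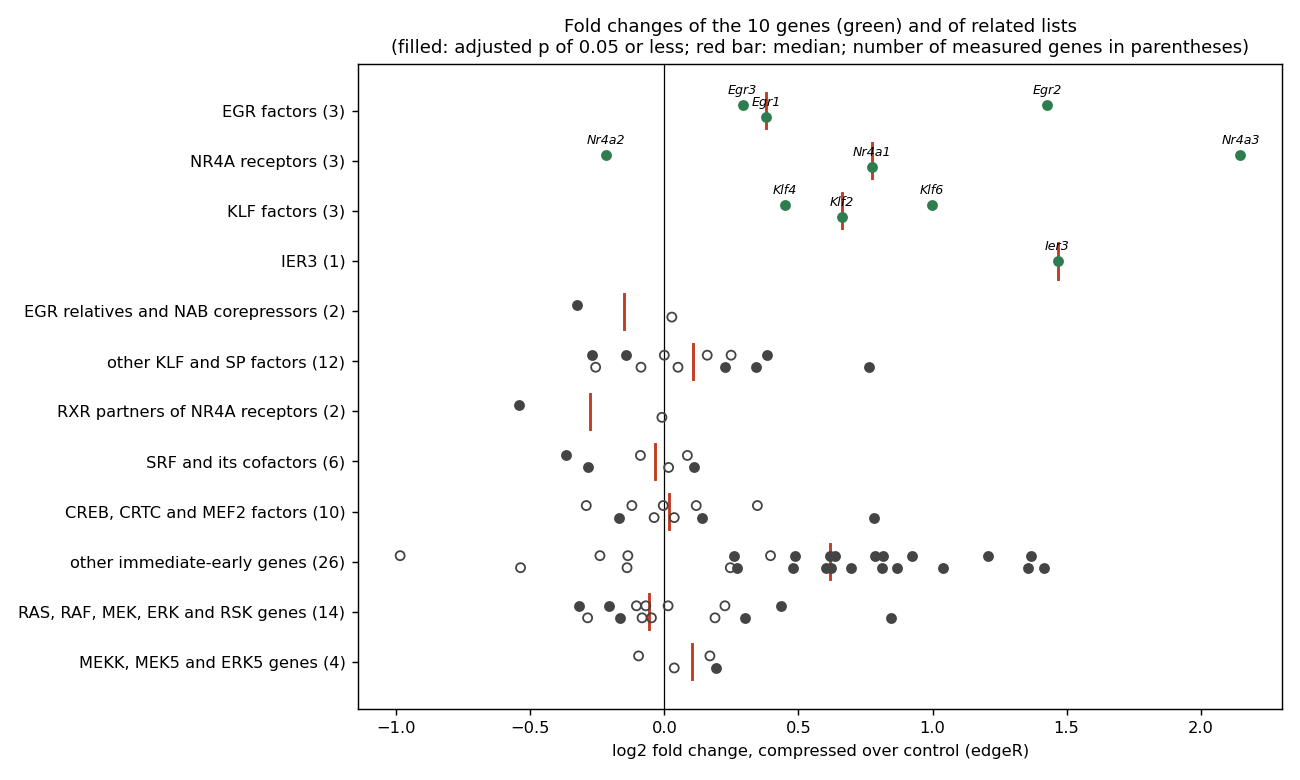
Log2 fold change of compressed over control macrophages (horizontal axis) for the 10 genes (green) and for the measured genes of 8 related lists (dark), 1 point per gene, filled where the adjusted p was 0.05 or less, with a red bar at each median. The 10 genes run from -0.22 (Nr4a2) to 2.15 (Nr4a3), and of the related lists the other immediate-early genes lie farthest to the right, with a median of 0.62.

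The high and low controls for Egr1 were also the high and low controls for Fos, Fosb and Dusp1, immediate-early genes that are named for this after their values were seen. Egr1 was at 123, 112, 125, 112, 118 and 94.2 CPM in compressed replicates 1 to 6, against 106, 97.4, 104, 72.9, 72.1 and 73.6 CPM in control replicates 1 to 6. Fos, the partner of JUN in AP-1, was at 98.2, 81.5, 84.2, 54.6, 50.4 and 58.8 CPM in compressed replicates 1 to 6, against 146, 126, 147, 73.2, 67.1 and 60.8 CPM in control replicates 1 to 6. In both genes control replicates 1, 2 and 3 lay above control replicates 4, 5 and 6, and the same was seen among compressed libraries for Fos. Fosb, the FOS paralog, was at 6.94, 4.58, 4.65, 2.59, 1.80 and 3.13 CPM in compressed replicates 1 to 6, against 16.9, 12.3, 12.6, 1.83, 1.34 and 1.88 CPM in control replicates 1 to 6. Dusp1, the phosphatase that inactivates MAP kinases, was at 30.6, 23.7, 26, 22.9, 23.2 and 29.4 CPM in compressed replicates 1 to 6, against 17.7, 18, 19.7, 11.1, 13.3 and 10.4 CPM in control replicates 1 to 6. Control replicates 1, 2 and 3 were again the high controls in both, and compressed replicates 1, 2 and 3 lay above compressed replicates 4, 5 and 6 for Fosb but not for Dusp1. Fos (log2 fold change -0.54 ± 0.253, adjusted p = 0.102) and Fosb (-0.99 ± 0.604, adjusted p = 0.205) were not called, and Dusp1 was (0.79 ± 0.155, adjusted p = 8.69e-04). With the replicate number as a block Fos was called lower (log2 fold change -0.48, adjusted p = 0.00343) and Fosb was not (-0.58, adjusted p = 0.213). The split was not confined to these genes. Klf4 was at 15.2, 14.0 and 14.5 CPM in compressed replicates 1 to 3 and 12.5, 12.0 and 13.3 CPM in replicates 4 to 6. Its controls were at 10.18, 10.55 and 10.57 CPM in replicates 1 to 3 and 9.17, 9.69 and 9.58 CPM in replicates 4 to 6. Control replicates 1 to 3 also lay above control replicates 4 to 6 for Ier2, Jun and Zfp36. The labels name no batch, and whether replicates 1 to 3 and 4 to 6 of either group differ in handling was not tested.

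**Figure D5:**
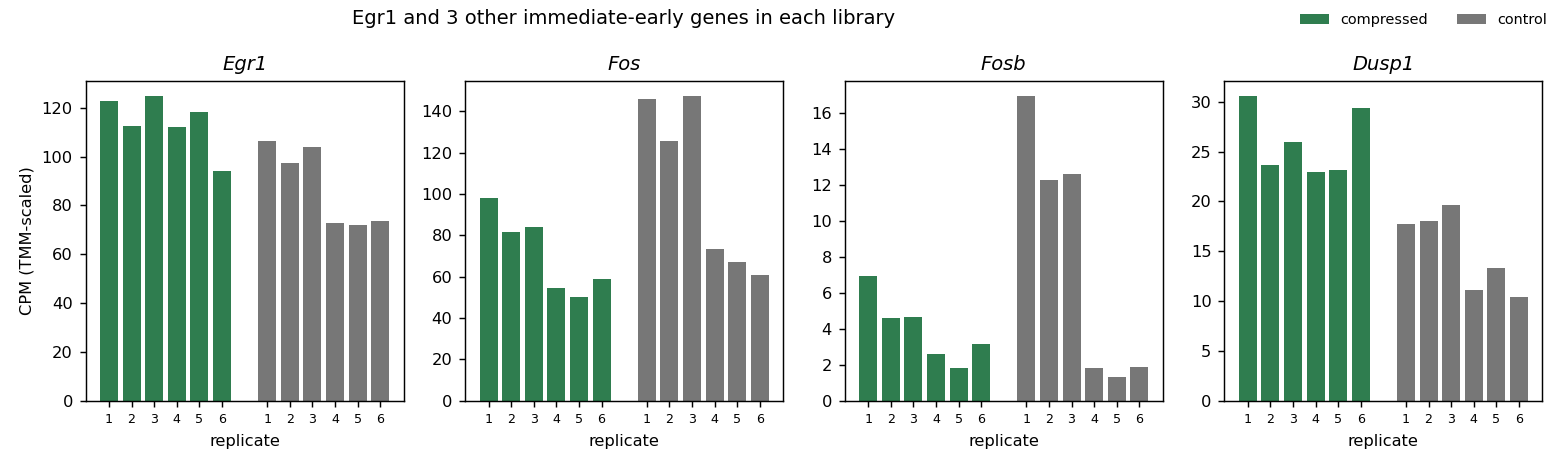
CPM (vertical axes, from 0) of Egr1, Fos, Fosb and Dusp1 in compressed replicates 1 to 6 (green) and control replicates 1 to 6 (grey). In all 4 genes control replicates 1, 2 and 3 are above control replicates 4, 5 and 6, for Fosb at 12.3 CPM or more against 1.88 CPM or less.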

How the data were processed

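RNA from 12 samples of RAW264.7 macrophages was measured by sequencing of directional, mRNA-enriched libraries. The authors aligned reads to GRCm39 with STAR 2.7.2, per their processing notes, and deposited raw counts for each Ensembl gene in each library. How reads were counted, with which strand setting and annotation release, is not given in the sources used here. The authors tested them with DESeq2. Groups came from the sample labels. Symbols and exon lengths came from GENCODE M21 by ID (51948 of 56941 IDs, 99.5% of counts).

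Counts were filtered with filterByExpr (minimum count 10, groups of 6), scaled by TMM and tested on condition alone with edgeR 4.0.16 in R 4.3.3. A gene was called when its p, adjusted over all tested genes by Benjamini-Hochberg, was at most 0.05. The SE divides the size of the log2 fold change by the square root of F and so restates that test. CPM are counts per 1000000 reads after TMM scaling, and log2 CPM used a prior count of 2. At 33460807 to 40463545 counts per library, counting error is largest for Nr4a3 among the 10 genes. No 2 libraries agreed within counting error (mean chi-square per gene 2.20 or more).

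Alternatives were DESeq2 1.42.0, RLE factors, library size alone, no filter, a mean normalized count over 50, glmTreat at 1.5-fold, replicate number as a block, and leaving out each library in turn. Levels per kb used exon-union length, or the longest transcript as the alternative, since the reference table of lengths gives genomic spans. Ratios within families were added after the values were seen and tested in Python 3.11.15 with SciPy 1.17.1. Promoters came from RefSeq (GRCm38.p6), searched on both strands in 32851 windows. The windows of a single chromosome were left out of the search. Protein sequences were not used here. The genes were given by name, the text names all 10 whatever their values, and for each related list the 3 called genes with the largest change and up to 3 called genes against its majority. Some genes that this rule takes are left out here. The genes and lists were chosen with earlier results of these data known.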

Additional observations from a re-analysis of the deposited data

Results flagged for a closer look

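A library was set apart from the rest of its group when its gap to the nearest library, over the range of the group, was above Dixon's 95% critical value for 6 libraries. Of 20 groups examined (10 genes in compressed and in control macrophages) 5 met this, where chance gives about 1 in 20. Compressed replicate 6, which stood apart over all genes, was high for Ier3 (1523 CPM, gap over range 0.816) and for Klf2 (27.1 CPM, 0.742). Compressed replicate 5 was high for Nr4a1 (25.8 CPM, 0.684) and compressed replicate 4 for Egr3 (33.3 CPM, 0.639). Control replicate 6 was high for Nr4a3 (0.824 CPM, 0.675). Each of these genes was also called without that library.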

How the results depend on the processing

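Over 19 alternatives the direction of all 10 genes stood in 190 of 190 comparisons and the call in 184; 6 calls were lost, 5 of them under glmTreat. Against a 1.5-fold change 5 of the 10 genes were called, 5 higher and 0 lower, with 1295 of all tested genes and 10 genes of the related lists (6960 and 40 in the reported test). Leaving out each library in turn gave 9 to 10 of the 10 genes called, 9 higher in each fit and 0 to 1 lower, 6385 to 9981 of all tested genes and 37 to 59 of the related lists; the value of 0 lower came without control replicate 3, where Nr4a2 had an adjusted p of 0.0539, and the largest counts came without compressed replicate 6. The Nr4a2 call was near the threshold elsewhere too, at 0.0498 with no filter and 0.0481 with the replicate block. Deviations of same-numbered libraries from their group means correlated at -0.115 to 0.04 over 6 pairs, and 0 libraries correlated best with their own number. This cannot show whether replicate numbers pair the samples, since compressed replicate 6 stood apart over all genes and shifted the mean of its group. For Fos, Fosb and Klf4 replicates 1 to 3 lay above replicates 4 to 6 in both groups. With the replicate number as a block 10 of the 10 genes, 6393 of all tested genes and 38 genes of the related lists were called. Levels per kb moved with the longest transcript for Egr2, Egr3, Nr4a1, Nr4a2 and Klf6, as given above for the genes whose order changed. The count of 460 for Nr4a3 in compressed macrophages, against 117 in controls, limits the precision of its fold change. The causes of these shifts were not tested.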
